A study of Homo sapiens with 2 samples.

Results

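Cholesterol and fatty acids are built from acetyl-CoA by separate enzyme chains that run in the cytosol and on the endoplasmic reticulum. The transcription factors SREBP-1 and SREBP-2, which SREBF1 and SREBF2 encode, switch on the genes of both chains. SCAP carries them out of the endoplasmic reticulum when sterols are scarce, and the INSIG proteins hold them back when sterols are plentiful. The values below describe these genes in A375 cells, a human melanoma cell line, after transfection with an siRNA against THOC2 (si-THOC2) or with a control siRNA (NC).

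The gene list held 34 genes of the 34757 gene symbols on the array, and the deposited annotation assigned 44 probes to them. Members were chosen by function and not by measured value, but with earlier results of these data known. All 34 were found by symbol. They were split into 18 sterol synthesis enzymes, 6 genes that regulate SREBP processing or carry sterol, and 10 genes of the fatty acid branch. The list does not hold every enzyme of either chain. A single RNA sample per condition was hybridized to its own array, a 1-colour Agilent design with probes of 60 bases, both on 1 slide. By their labels both samples stand 48 h after transfection. The source field of each sample names the opposite condition to its title and description, so the latter were followed. The targeted gene was lower on the array then taken as si-THOC2: THOC2, a subunit of the THO mRNA export complex, had a log2 fold change of -1.42 and -0.63 at its 2 probes. The labels give DMEM and the methods RPMI-1640 as the medium, each with fetal bovine serum, a source of cholesterol and fatty acids. The methods list several siRNAs against THOC2, and which of them was used on the array is not given in the sources used here.

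There was no replicate, so no test between the conditions was possible, and each difference is between 2 arrays. Signals are the background-subtracted intensities of the scanner software. The 75th percentile of all probes was 1.24-fold lower on the si-THOC2 array, so a probe that kept its rank has a lower signal there. All log2 fold changes are differences of log2 signal after subtraction of each array's 75th percentile, si-THOC2 minus NC. Paired values in parentheses are signals, NC first and si-THOC2 second. The error beside a value is the scanner software's own error, combined over both arrays, which was 0.20 (log2) at the median member probe. It ran from 0.20 to 0.28 over member probes on both arrays and stayed near 0.20 at bright ones, where it acts as a nearly fixed limit. Repeated spots of other probes gave a smaller spread, a median SD of 0.052 above a log2 signal of 8 (244 probes), 0.099 between 6 and 8 (36 probes) and 0.17 between 4 and 6 (5 probes). Both errors leave out differences between cultures. The arrays measured pooled cells, so fewer cells with a transcript and less of it per cell cannot be told apart. Of 7 melanocyte genes 5 had a compared probe. SOX10 (0.056), MITF (-0.029), S100B (-0.66) and DCT (0.75) were measured on both arrays, while PMEL and TYR were below background on both. MLANA passed background on the si-THOC2 array alone, with a signal of 18.7 at 1 of its 2 probes. The other probe was below background on both arrays. Set after scaling against the lowest signal well above background on the NC array, MLANA was at least 1.58-fold higher. That bound leaves out the scanner error of the probe, which was 1.47. Among markers of other cell types, KRT5 and LUM were below background on both arrays, and the fibroblast gene DCN gave 62.4 on the NC array and 149 on the si-THOC2 array, and its log2 fold change was 1.56. The keratin genes KRT14 and KRT10 were at 0.62 and -0.34 by their probes on both arrays. Another KRT14 probe passed background on the si-THOC2 array alone, with a signal of 26.9 (scanner error 0.46). By the kind of bound used for MLANA it was at least 2.28-fold higher. The immune genes CD3E and PTPRC were at 0.87 (25.3 and 37.4) and 0.39 (27.4 and 28.9). These immune signals are dim, as the lowest signal well above background was 14.7 with NC and 15.9 with si-THOC2. PTPRC was read by 1 of its 5 probes. Its other probes and a second probe of DCN were below background on both arrays. The part of such signals in the values below was not tested.

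The 4 stretches of probe sequence below belong to the highest member, FASN, the lowest, STARD4, and ACACA, whose probes gave values of opposite sign. For each probe the first 30 of its 60 bases are given in lower case, and the coordinates are those of the whole probe on hg19, all on the minus strand. The FASN probe lies at chr17:80036216-80036275 and the STARD4 probe at chr5:110834688-110834747. ACACA has a probe at chr17:35441933-35441992 and another 245304 bases upstream at chr17:35687237-35687296. Exons and UTRs were not analysed here.
FASN: tacaccaatttggtaaaaatgctgctctca
STARD4: ttatgtgttagtattcctgtgtctactgtt
ACACA, downstream probe: tgagcaggagcttcagatgcactctttaca
ACACA, upstream probe: agcactctcgattcataataggttctgtgt

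Promoters show what the members share beyond function. The RefSeq table of GRCh38.p14 promoters, from 250 bases before to 50 bases after each start, held 30 of the 34 members. FASN, ACAT2, FDFT1 and SQLE were not matched. A gene was counted where any of its promoters held a motif, searched on both strands. The sterol regulatory element, a binding site of the SREBPs whose letters are in capitals in the SREBF2 sequence below, was in 1 of the 30 members, SREBF2, against 0.0631% of 15843 protein-coding genes. The looser TCACNCCAC, which overlaps that element, added no member and was in 1.51% of protein-coding genes. CCAAT, the box bound by NF-Y, a partner of the SREBPs, was in 22 of 30 members (73.3%), against 42.1% of protein-coding genes. It was in 13 of 15 sterol synthesis enzymes, 3 of 6 regulators and 6 of 9 genes of the fatty acid branch. The Sp1 box GGGCGG was in 29 of 30 members and 64.3% of protein-coding genes, and the E-box CACGTG in 4 of 30 and 10.9%. A match describes letters in this window and is not a site of binding. Other forms of the sterol regulatory element and sites outside the window were not searched, so a member without a match may still have one.

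The 250 bases upstream of SREBF2 (chr22:41832855-41833104, plus strand) are printed because they hold both the sterol regulatory element and a CCAAT box. In capitals are the sterol regulatory element, which begins 134 bases before the start, and ATTGG, the CCAAT box read on the other strand, which begins 106 bases before it. Below them are 30 bases around the CCAAT box, in capitals as CCAAT or ATTGG, of the 3 members with the highest and the 3 with the lowest log2 fold change among those with an upstream box. These are MVD (chr16:88663160-88663189, minus strand), SCD (chr10:100347034-100347063, plus), ACSS2 (chr20:34874853-34874882, plus), DHCR7 (chr11:71448425-71448454, minus), TM7SF2 (chr11:65111785-65111814, plus) and STARD4 (chr5:111512649-111512678, minus).
SREBF2: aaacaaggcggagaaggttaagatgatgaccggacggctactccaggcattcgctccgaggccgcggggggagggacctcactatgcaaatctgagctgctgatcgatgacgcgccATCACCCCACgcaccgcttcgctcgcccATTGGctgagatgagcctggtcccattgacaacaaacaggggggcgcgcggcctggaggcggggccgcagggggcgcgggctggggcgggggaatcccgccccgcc
MVD: gggctcgcacgggCCAATcctgtggtagcg
SCD: aaattcccttcggCCAATgacgagccggag
ACSS2: cgccctccttgggATTGGgcagactctcgg
DHCR7: gggtccgcctccgATTGGcaggcaatcgct
TM7SF2: cccccgagcgccgATTGGctggtgtgctgg
STARD4: gctcccgcgccagCCAATccgaacaagcgc

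The members differed little between si-THOC2 and NC. Of 33 members with a probe well above background on at least 1 array, none was higher or lower by 1.5-fold, while 13.2% of 17514 genes compared were (6.03% higher, 7.19% lower). Among 11990 genes measured by probes with a mean log2 signal of at least 6 on both arrays, 3.19% passed 1.5-fold (1.63% higher, 1.56% lower) and 0 of 31 members did, a share near that background. At 2-fold the count was also 0 of 33 members, against 6.3% of all genes (2.96% higher, 3.34% lower). With the limit on signal, only 41 of the 11990 genes were higher and 23 lower by 2-fold, so 0 of 31 members is near that background. The median log2 fold change of the 33 members was 0.049, from -0.46 for STARD4 to 0.49 for FASN, beside a median of 0.023 over all genes. Of the 33 members, 27 (81.8%) lay within 0.2 of 0 on the log2 scale, against 52.0% of all genes compared. With the same limit on signal for both, it was 25 of 31 members (80.6%) against 63.7% of 11990 genes. This limit is only a floor, so members and genes were not matched for signal above it. The member SC5D, which makes a late double bond of cholesterol, was below background on both arrays and gives no value. Of the 44 probes, 38 passed background on both arrays, 1 on NC alone and 5 on neither. Of the 38, 10 (26.3%) differed by more than the scanner error, against a background of 38.8% of 22207 probes. FASN and STARD4, 2 of the 38, differed by more than 2 errors, against 10.8%. Neither background was matched for signal. By the smaller spread of repeated spots, 20 of the 38 differed by more than 2 SD. The share of all probes that did was not calculated, so this count cannot be read as a trait of the members.

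**Figure D1:**
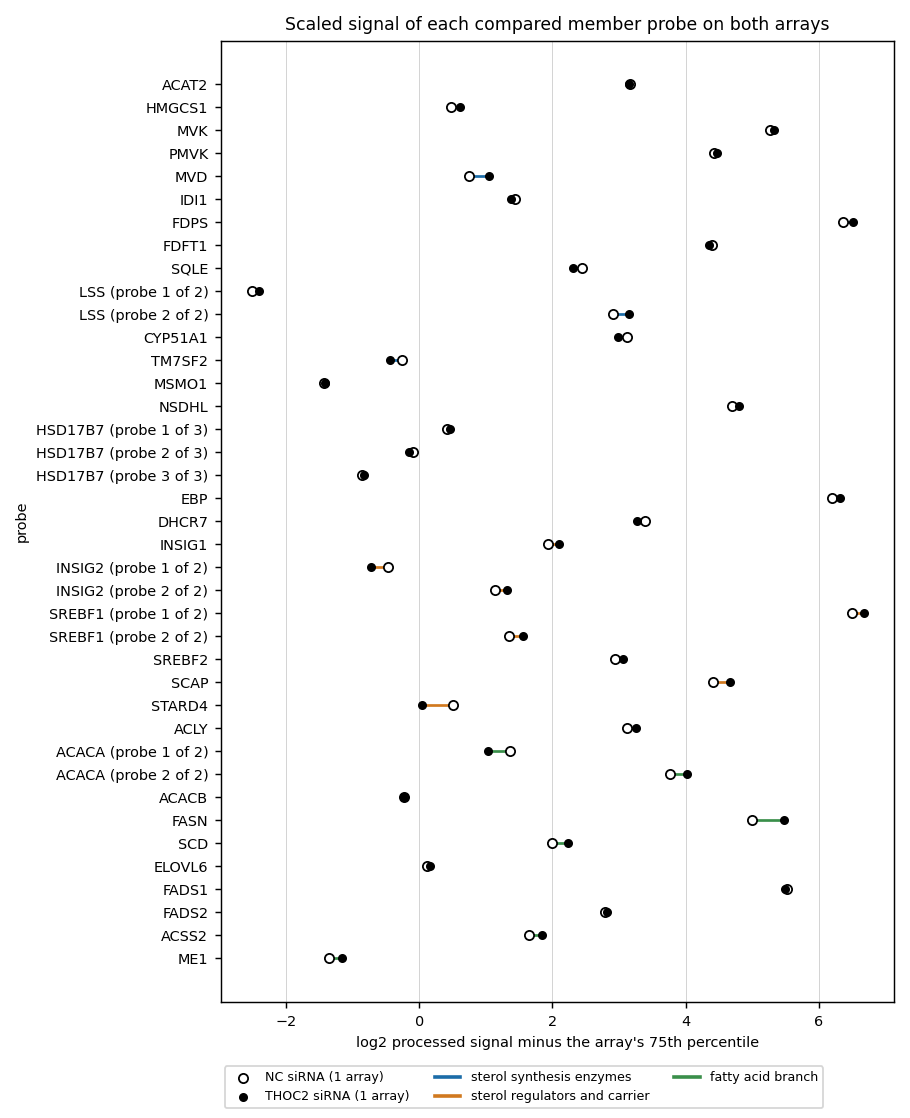
Scaled log2 signal (processed signal minus the array's 75th percentile, x axis) of the 39 compared probes of 33 members (y axis), with open circles for the NC array, filled circles for the si-THOC2 array and lines coloured by group. Most pairs lie close together, and the widest gaps are those of FASN (higher with si-THOC2), STARD4 and the upstream ACACA probe (lower).

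The sterol synthesis enzymes stood at a median log2 fold change of 0.014 over 17 genes, 10 above 0 and 7 below, from -0.17 for TM7SF2 to 0.30 for MVD. The order below follows the chain. The first 7 enzymes, from acetyl-CoA to farnesyl diphosphate, had a median of 0.056, and the 10 that lead from there to cholesterol had a median of -0.020. The difference between these medians was not tested.

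ACAT2, which condenses acetyl-CoA to acetoacetyl-CoA, gave 876 on the NC array and 705 on the si-THOC2 array, and its log2 fold change was -0.0028. HMGCS1, which makes HMG-CoA, went from 137 to 121, with a log2 fold change of 0.13. Both values were within the scanner error. MVK and PMVK, the kinases that phosphorylate mevalonate, had signals of 3777 and 2120 with NC and of 3168 and 1765 with si-THOC2. Their log2 fold changes were 0.056 and 0.045, so after scaling neither array was clearly brighter. MVD, which removes a carbon from the mevalonate chain to give isopentenyl diphosphate, gave 165 on the NC array and 163 on the si-THOC2 array. Its log2 fold change of 0.30 (scanner error 0.21) was the highest of the sterol enzymes, and 12.6% of probes of like signal were as high. IDI1, the isomerase of that product, was at -0.057 (265 and 206) and FDPS, the farnesyl diphosphate synthase, at 0.14 (8072 and 7199). FDPS has close pseudogene copies, whose transcripts its probe may also detect, and this was not tested.

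FDFT1, the squalene synthase, gave 2070 on the NC array and 1622 on the si-THOC2 array, and its log2 fold change was -0.043. SQLE, the squalene epoxidase and a slow step of the chain, went from 536 to 394, with a log2 fold change of -0.13 (scanner error 0.20). LSS, which folds the chain into the sterol rings, had 2 compared probes. The brighter probe had signals of 734 and 705, a log2 fold change of 0.25 (scanner error 0.20). The other, with a signal of 17.2 on the NC array, did not pass background on the si-THOC2 array and gives no fold. The gene value of LSS, a mean that includes the dim probe, was 0.18. CYP51A1, which removes the first methyl group of lanosterol, went from 852 to 629, with a log2 fold change of -0.13 (scanner error 0.20). SQLE and CYP51A1 were thus slightly lower on the si-THOC2 array and LSS, the enzyme between them, higher. Of the 3, only LSS passed the scanner error, by its brighter probe and not by its gene value.

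TM7SF2, a sterol reductase, gave 81.7 on the NC array and 58.7 on the si-THOC2 array, and its log2 fold change was -0.17 (scanner error 0.23), the lowest of the sterol enzymes. MSMO1 and NSDHL, which remove the other methyl groups, were at 0.014 (36.4 and 29.7) and 0.11 (2531 and 2198). HSD17B7, a ketoreductase of the same step, was at 0.0028 as a mean of 3 probes that ran from -0.063 to 0.039. Another probe was below background on both arrays, and a pseudogene copy of HSD17B7 may share its probes. EBP, a sterol isomerase, was at 0.12 (7192 and 6327). DHCR7, which completes cholesterol, went from 1029 to 760 in signal, a log2 fold change of -0.13 (scanner error 0.20), and 18.3% of probes of like signal were as low.

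**Figure D2:**
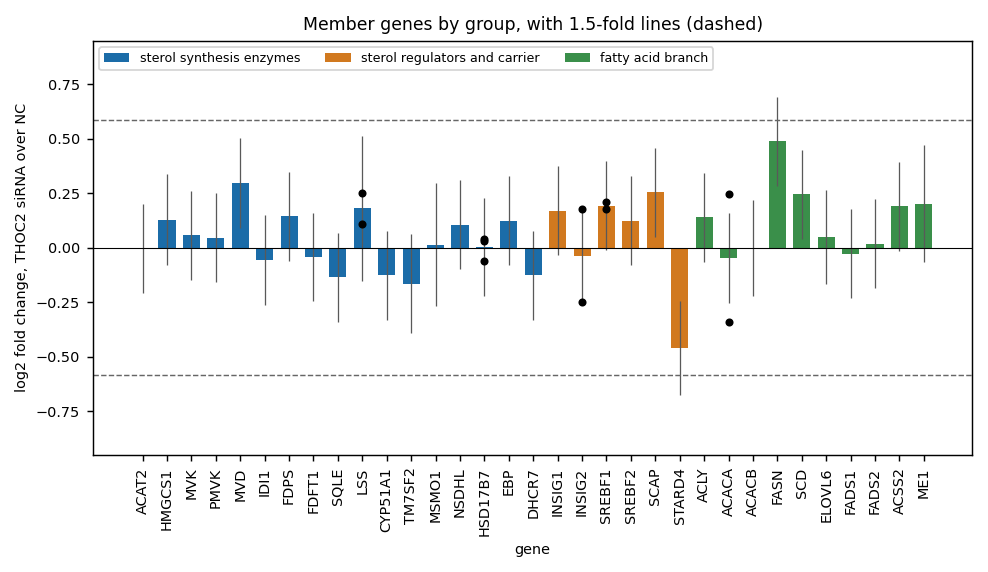
Log2 fold change of si-THOC2 over NC (y axis) for 33 member genes (x axis) in pathway order, coloured by group, with error bars for the mean scanner error, black points for single probes where a gene has more than 1, and dashed lines at 1.5-fold. No bar reaches a dashed line, though the error bars of FASN (0.49) and STARD4 (-0.46), the tallest bars, cross it.

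The regulators and the sterol carrier had a median of 0.15 over 6 genes, of which 4 were above 0. SREBF1, which encodes the factor that mainly drives fatty acid genes, had 2 probes 115 bases apart. Their signals were 8879 and 249 with NC and 8089 and 233 with si-THOC2, and their log2 fold changes were 0.18 and 0.21. Both probes gave much the same value, each near the scanner error of 0.20 and 0.21. SREBF2, which encodes the factor that mainly drives sterol genes and whose promoter is printed above, went from 754 to 663, with a log2 fold change of 0.12. SCAP, the escort of both factors, gave 2081 on the NC array and 2004 on the si-THOC2 array, and its log2 fold change was 0.25 (scanner error 0.20), and 15.2% of probes of like signal were as high. INSIG1, itself a target of the SREBPs, was at 0.17 (374 and 339, scanner error 0.20). INSIG2 had 2 probes 2259 bases apart with log2 fold changes of 0.18 (216 and 197) and -0.25 (71.1 and 48.2), so its gene value of -0.037 averages opposite signs.

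STARD4, which carries cholesterol between membranes and is a known target of SREBP-2, was the lowest member. Its only probe gave 139 on the NC array and 81.4 on the si-THOC2 array, and its log2 fold change was -0.46 (scanner error 0.21), or 1.38-fold lower. Of probes of like signal, 6.81% were as low. The lowest value among the sterol enzymes was -0.17. STARD4 stayed below 0 in all 10 alternative settings, from -0.50 to -0.29. Its only probe passed background on both arrays, so the settings for dim probes and for the brightest probe could not change its value.

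The fatty acid branch had a median of 0.095 over 10 genes, 7 above 0 and 3 below. FASN, the synthase that builds palmitate, was the highest member of all. Its probe, at 17q25.3, gave 3127 on the NC array and 3542 on the si-THOC2 array, and it was the only 1 of the 38 member probes on both arrays whose unscaled signal was higher with si-THOC2. The log2 fold change was 0.49 (scanner error 0.20), or 1.40-fold, and 1.38% of probes of like signal were as high. It ran from 0.35 to 0.49 over the 10 alternative settings, of which those for dim probes and the brightest probe could not change it. SCD, which puts the first double bond into fatty acids, had signals of 391 and 373, a log2 fold change of 0.24 (scanner error 0.20).

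ACACA, which makes malonyl-CoA for FASN, gave opposite values at its 2 probes, whose sequences are shown above. The downstream probe gave 1338 on the NC array and 1279 on the si-THOC2 array, and its log2 fold change was 0.24 (scanner error 0.20). The upstream probe went from 253 to 161, with a log2 fold change of -0.34 (scanner error 0.21), and 8.68% of probes of like signal were as low. The gene value of -0.048 therefore describes neither probe, and the transcripts that each detects were not analysed here. ACACB, the mitochondrial form, had 1 of 3 probes well above background (84.2 and 67.9), at -0.0019. ACLY, which frees acetyl-CoA from citrate for both chains, was at 0.14 (851 and 757).

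ACSS2, which makes acetyl-CoA from acetate, was at 0.19 (309 and 284, scanner error 0.21). ME1, the malic enzyme that supplies NADPH, was at 0.20 (38.2 and 35.5, scanner error 0.27). ELOVL6, which lengthens palmitate, was at 0.049 by the 1 of its 2 probes above background (106 and 88.7). The desaturases of polyunsaturated fatty acids, FADS1 and FADS2, were at -0.028 (4487 and 3551) and 0.017 (682 and 557). These genes thus lay between -0.028 and 0.20, each within its scanner error.

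**Figure D3:**
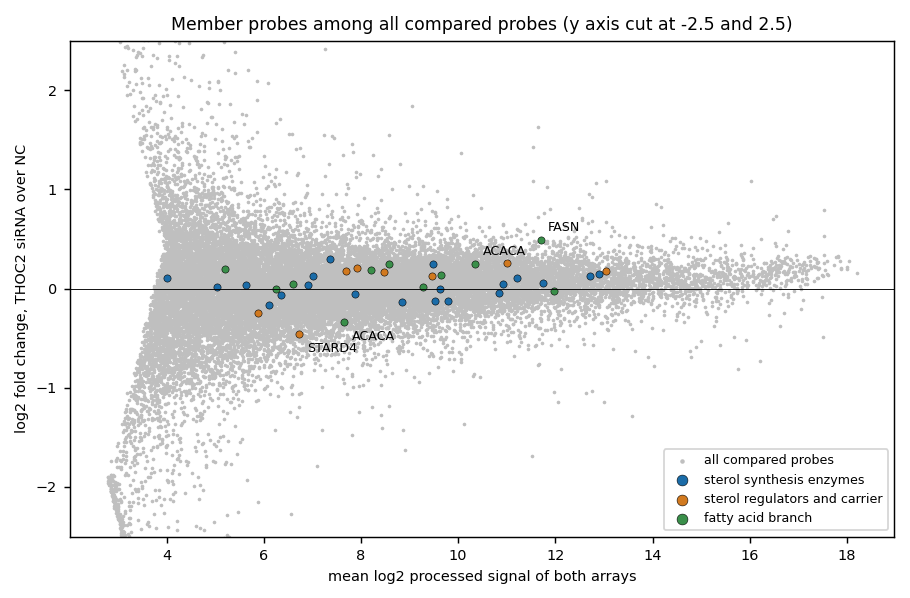
Log2 fold change (y axis, cut at -2.5 and 2.5) against mean log2 signal of both arrays (x axis) for all compared probes in grey and the member probes coloured by group, with FASN, STARD4 and the ACACA probes named. Member probes lie inside the grey cloud at their signal, FASN at its upper edge, and the cloud widens towards dim signals.

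The median of the fatty acid branch was 0.081 above that of the sterol enzymes on the log2 scale, a difference that was not tested. The sign of many members was not stable. Over the main values and 10 alternative settings, 14 members were above 0 in each, 9 were below 0 in each and 10 changed sign. Where a member's only probe passed background on both arrays, the settings for dim probes and the brightest probe could not change its sign. Those always above 0 were HMGCS1, MVD, FDPS, LSS, EBP, INSIG1, SREBF1, SREBF2, SCAP, ACLY, FASN, SCD, ACSS2 and ME1. Those always below 0 were ACAT2, IDI1, FDFT1, SQLE, CYP51A1, TM7SF2, DHCR7, STARD4 and FADS1. Sterol enzymes and genes of the fatty acid branch were thus in both sets. The 21 compared members with a CCAAT box in the promoter window had a median log2 fold change of 0.11 and the 8 without had 0.047, with ranges that overlap (from -0.46 to 0.30 and from -0.13 to 0.25).

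**Figure D4:**
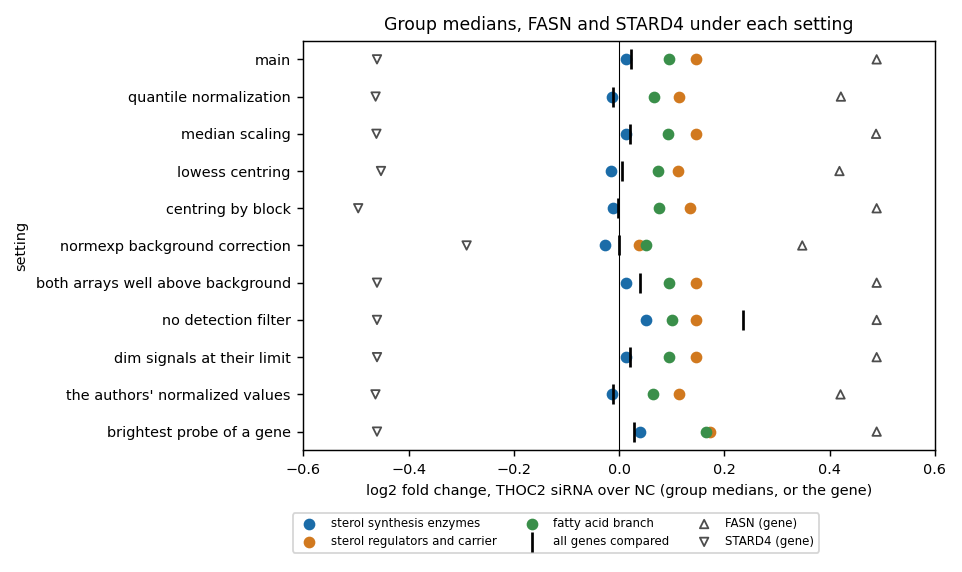
Median log2 fold change of the 3 groups (coloured points), of all genes compared (black bars), and the values of FASN and STARD4 (open triangles), on the x axis, under the main and 10 alternative settings on the y axis. The sterol enzymes lie within 0.051 of 0 in each setting, while FASN stays at 0.35 or above and STARD4 at -0.29 or below.

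The genes around these chains were read from 4 lists of 40 genes in all, chosen from textbook knowledge. Of 39 with a compared probe, 1 was higher and 1 lower by 1.5-fold, against 6.03% and 7.19% of all genes, and their median was 0.023. ACSL3, which activates long-chain fatty acids on the endoplasmic reticulum and lipid droplets, was the lower one. Its probe went from 149 to 70.8 in signal, a log2 fold change of -0.76 (scanner error 0.22), and 1.03% of probes of like signal were as low. ABCG1, which exports cholesterol to lipoproteins and is a target of the LXR receptors, was the higher one. Its only probe was not well above background with NC and had a signal of 23.7 with si-THOC2 (scanner error 0.43). Set after scaling against the lowest signal well above background on the NC array, it was at least 2.00-fold higher. That bound leaves out the scanner error.

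In the transport, esterification and efflux list (median 0.079, 12 genes), ABCA1, the other LXR-driven exporter, had a log2 fold change of -0.49 (77.2 and 44.4). SOAT1, which esterifies cholesterol for storage, was also at -0.49 (134 and 77.3). The LXR receptor gene NR1H3 was at 0.35 (704 and 722) and NR1H2 at 0.22 (508 and 479). The efflux genes thus had no common direction, though ABCG1 rests on a single dim probe. NPC1, which moves cholesterol out of lysosomes, was printed on 10 spots and had a log2 fold change of 0.042 with an SD of 0.11 over spots, from -0.19 to 0.19. This range is the spread over spots of a single probe, and most sterol enzymes lay inside it. The SD of NPC1 was larger than the median of 0.052 for repeated probes above a log2 signal of 8, so its range is not a general measure of error.

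**Figure D5:**
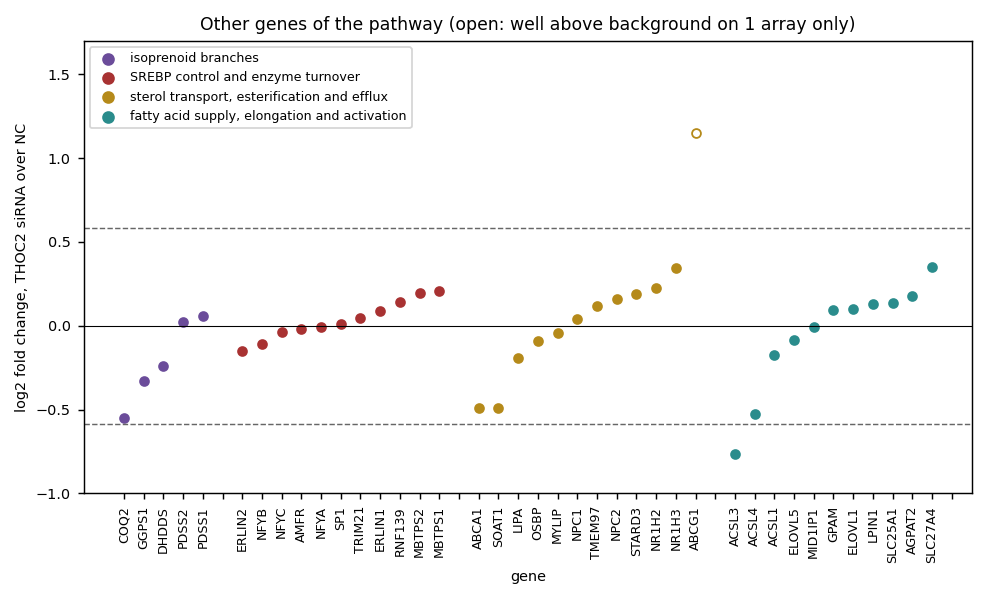
Log2 fold change of si-THOC2 over NC (y axis) for 39 other genes of the pathway (x axis), ordered within 4 lists by value, with dashed lines at 1.5-fold and an open circle for a gene well above background on 1 array only. ACSL3 lies below the lower line and ABCG1, drawn at its measured difference of 1.15 although only a bound of 2.00-fold without error is given, above the upper one.

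In the fatty acid supply, elongation and activation list (median 0.095, 11 genes), ACSL4, another long-chain acyl-CoA synthetase, followed ACSL3 with a log2 fold change of -0.53 (31.9 and 17.9, scanner error 0.36). ACSL1, of the same family, was at -0.18. The fatty acid transporter gene SLC27A4 was the highest of this list at 0.35 (182 and 187). GPAM, which starts glycerolipid synthesis, had probes of opposite sign, at -0.41 (126 and 76.3) and 0.60 (16.7 and 20.5). The isoprenoid branches (5 genes) ran from COQ2, the coenzyme Q prenyltransferase, at -0.55 (99.4 and 54.6, scanner error 0.23) to PDSS1, which makes the coenzyme Q side chain, at 0.058, the mean of probes at -0.070 and 0.19. The median of the list was -0.24, the value of DHDDS, whose mean includes a probe that passed background on the NC array alone. GGPS1, which makes geranylgeranyl diphosphate, was at -0.33 (38.5 and 24.7, scanner error 0.30). The genes that control SREBP and enzyme turnover lay close together (median 0.0085, 11 genes), from -0.15 for ERLIN2 to 0.21 for MBTPS1. MBTPS1 and MBTPS2, the proteases that release the SREBPs in the Golgi, were at 0.21 and 0.19, and the NF-Y subunit genes NFYA, NFYB and NFYC at -0.0082, -0.11 and -0.039.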

How the data were processed

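Total RNA of A375 cells was measured on 1 array per condition. The authors deposited the intensity of each spot, made with Agilent Feature Extraction 10.7.1.1 per the labels, which subtracts the background and corrects spatial trends. The authors also deposited log2 values of both arrays, with equal distributions as quantile normalization gives. Their table of fold changes of probes past 2-fold was not used here.

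Controls and outlier-flagged spots (230 with NC, 253 with si-THOC2) were dropped. No spot was saturated. Repeated spots were averaged as log2 values, which left 58199 probes. A probe that passed background on 1 or both arrays was compared after subtraction of the 75th percentile, a gene being the mean of its compared probes and called at 1.5-fold. Precision is limited by the number of arrays, 1 per condition, and the t-test named in the methods could not be run. Probes of like signal lie within 0.5 of the mean log2 signal. Named genes are all members, THOC2, and in each other list the genes past 1.5-fold and the highest and lowest. Further genes named with their values were chosen after these were seen. A single gene of these lists is not reported here and was left out of their counts and medians. The members and lists were chosen with earlier results of these data known. Alternatives were other scalings (quantile, median, lowess with span 0.3, centring in 128 blocks of the array), normexp (offset 50), other treatments of dim probes, the authors' log2 values, the brightest probe and a fold of 2. The calculations were tested on simulated data. Python 3.11.15 (numpy 2.4.6, pandas 2.3.3, statsmodels 0.14.6, matplotlib 3.10.9) and R 4.3.3 with limma 3.58.1 were used.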

Additional observations from a re-analysis of the deposited data

How the results depend on the processing

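No paired analysis was possible because each condition has 1 array. The count of members called was 0 in each of the 3 groups in all 10 alternative settings and at a fold of 2. The median of the sterol enzymes ran from -0.026 to 0.051 and lay below 0 in 5 of the 10 settings, each time within the technical SD of its main value. The median of the regulators and carrier stayed above 0 in all 10, and normexp background correction moved it from 0.15 to 0.038. The median of the fatty acid branch stayed above 0 in all 10, and taking the brightest probe of a gene moved it from 0.095 to 0.16, since ACACA is then read by its downstream probe alone. The mean of the THOC2 probes was -1.03, against -0.51 under normexp and -1.42 for the brightest probe. The cause of the changes under normexp was not tested. Leaving out the detection filter moved the median of all genes from 0.023 to 0.24. Dim signals limit SC5D, with no value, and the second probe of LSS, with no fold.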
